A study of Homo sapiens with 24 samples.

Results

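SNU1079 cells exposed to YC-1 for 16 h were compared with SNU1079 cells given the solvent DMSO for the same time, 3 libraries against 3, out of 24 libraries in the series. SNU1079 is a human cholangiocarcinoma line, a cancer of bile duct cells, which the submitters describe as carrying mutant IDH1 and expressing the sulfotransferase SULT1A1. The members of the comparison are the 15658 genes, of 57820 rows in the table, with a normalised count of at least 10 in at least 3 of these 6 libraries. The other groups hold the same line at 6 h and RBE, a second IDH1-mutant cholangiocarcinoma line, at both times, again as 3 libraries of YC-1 and 3 of DMSO each. No dose was given in the labels used here, and every value of this comparison comes from 1 cell line. Treatment times were read from the sample titles, because a separate time label reads 16 h on all DMSO samples and 6 h on all samples with YC-1.

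YC-1, also called lificiguat, is a small molecule with a hydroxymethyl group. It stimulates soluble guanylate cyclase, which makes cyclic GMP, and it has been used to inhibit HIF-1, the transcription factor of the hypoxia response. The title of the series concerns alkylating compounds that need sulfonation, the transfer of a sulfate group by enzymes such as SULT1A1, which can turn an alcohol into a reactive ester. Several programmes commonly followed in stressed cells are described in the results: the ATF4 and CHOP response to a block of translation or amino acid supply, the p53 response to DNA damage, NF-kB signalling with its cytokines, and the cell cycle genes that DREAM and FOXM1 complexes control in mitosis.

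The normalised counts of a library summed to between 19010000 and 19810000 with DMSO and to between 22880000 and 26830000 with YC-1; sequencing depth is unknown. Some libraries stood apart from the others of their group. Among genes with a group mean of at least 100, 387 of 11104 lay more than 1 log2 unit from the mean of the other 2 libraries in DMSO replicate 1, 60 in replicate 2 and 147 in replicate 3. In the YC-1 group the numbers were 162, 736 and 577 of 10937 for replicates 1, 2 and 3. These deviations ran along the GC content of the transcripts, with Spearman correlations across genes of 0.52, -0.03 and -0.61 in DMSO replicates 1 to 3 and -0.13, 0.51 and -0.46 in YC-1 replicates 1 to 3. These correlations are descriptions across genes of the same libraries. Some results are also given without DMSO replicate 1 and YC-1 replicate 2.

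After 16 h, 6865 genes passed the test (43.8% of those tested, limma on log2(normalised count + 1), Benjamini-Hochberg adjusted p under 0.05). Of these, 3519 were higher and 3346 lower with YC-1, 2103 and 2385 by at least 2-fold, and 303 and 157 by at least 8-fold. The median log2 fold change over all tested genes was 0.06. In 6763 of the called genes every YC-1 library lay beyond every DMSO library, and 55.3% of all tested genes had such separated libraries. The split between higher and lower depended on the scaling: libraries brought to equal sums gave 1757 higher and 4997 lower (43.1% called, median log2 fold change -0.30), and scaling to ribosomal protein genes gave 1185 and 5053 (39.8% called, median -0.46). Without DMSO replicate 1 and YC-1 replicate 2, 3106 genes were higher and 3150 lower (42.7% called). Of 6332 called genes that could still be tested there, 5570 were called in the same direction and 0 had the opposite sign. Where every YC-1 library lay beyond every DMSO library, as in 6763 of the called genes, leaving libraries out cannot reverse the sign. The count of 0 was therefore largely fixed in advance and does not test the influence of the libraries left out.

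**Figure D1:**
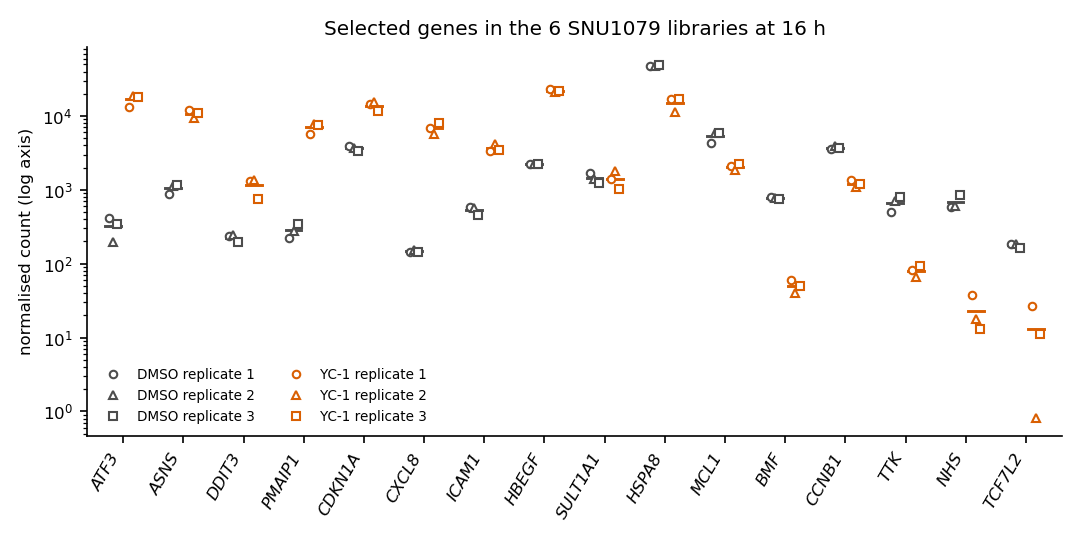
Normalised counts (log axis) of 16 genes in the 3 DMSO libraries (grey) and 3 YC-1 libraries (orange) of SNU1079 at 16 h, with a bar at each group mean. ATF3 lies between 198.8 and 415.9 with DMSO and between 13302 and 18844 with YC-1, while the libraries overlap for SULT1A1.

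Genes that ATF4 and CHOP control rose in most cases. ATF3, a stress-induced transcription factor (ENSG00000162772, chromosome 1, 212565334 to 212620777, GENCODE 29 on GRCh38), stood at 415.9, 198.8 and 347.9 in the DMSO libraries and at 13302, 18844 and 18355 in the YC-1 libraries. All 3 YC-1 libraries were far above all 3 DMSO libraries, with a log2 fold change of 5.76 ± 0.27 (SE, adjusted p = 1.33e-05). ASNS, the asparagine synthetase that answers amino acid shortage, went from 868.2, 1132 and 1161 to 12184, 9440 and 10818 (3.36 ± 0.17, adjusted p = 2.27e-05). PCK2, a mitochondrial enzyme of phosphoenolpyruvate synthesis, rose by 3.57, the one-carbon enzyme MTHFD2 by 2.12, and DDIT3, which encodes CHOP, by 2.30. The mRNA of ATF4 itself did not pass the test, at 3265, 3005 and 2873 with DMSO and 3787, 4207 and 3090 with YC-1 (0.27 ± 0.16, adjusted p = 0.206). ATF4 is known to be controlled mainly in its translation.

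Of 27 tested members of the ATF4 and CHOP list, 21 rose and 1 fell, with a median log2 fold change of 1.81 beside 0.06 for all genes. VLDLR, a lipoprotein receptor, was the member that fell, from 1983, 2103 and 2423 to 426.7, 343.3 and 344.2 (-2.55 ± 0.18). Cytosolic tRNA synthetases, several of which are known ATF4 targets, gave 12 higher and 2 lower of 20 (10 and 2 without DMSO replicate 1 and YC-1 replicate 2), led by YARS (1.77), SARS (1.64) and CARS (1.44). Under ribosomal protein scaling these synthetases gave 3 higher and 2 lower, and the ATF4 and CHOP list 15 and 2. The classical targets of the unfolded protein response were mixed, with 5 higher and 4 lower of 18, and 3 and 6 with equal sums. In that list HERPUD1 (1.50) and XBP1 (0.86) rose and the stress sensor ATF6 fell by 1.05, while the chaperone HSPA5 was at 21732 ± 1162 with DMSO and 26330 ± 1273 with YC-1 (SD, n = 3) and did not pass.

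ATF4 and its partners bind a composite C/EBP-ATF element, searched here as TGATGNAAN on both strands of RefSeq promoter windows (GRCh38.p14, 250 bases before to 50 after the start). It was found in 6 of 28 list members with a promoter in the table (21.4%) and in 3.6% of all 35116 promoters. The list was chosen as genes of the ATF4 and CHOP response, so this share is no separate support for their control. The 3 windows printed here belong to members that rose, are 60 bases long, read 5′ to 3′ on the gene's strand and carry the match in capitals.
ATF3, chr1:212565190-212565249, plus strand: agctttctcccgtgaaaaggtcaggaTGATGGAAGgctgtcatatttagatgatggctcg
CHAC1, chr15:40953235-40953294, plus strand: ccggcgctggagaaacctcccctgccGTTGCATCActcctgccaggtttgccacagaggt
ASNS, chr7:97872443-97872502, minus strand: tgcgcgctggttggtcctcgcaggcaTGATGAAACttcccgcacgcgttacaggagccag
CHAC1, a glutathione-degrading enzyme induced by CHOP and ATF4, carries the element on the opposite strand; its values were 47.33, 49.55 and 54.97 with DMSO and 322, 277.1 and 268.6 with YC-1 (2.49 ± 0.25). A match is a description of letters in the window and not evidence of binding.

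Targets of p53 rose in 15 of 27 cases and fell in 1, with a median of 0.88. PMAIP1, which encodes the pro-apoptotic BH3-only protein NOXA, went from 222.2, 279.7 and 350.2 to 5762, 7862 and 7626 (4.65 ± 0.21, adjusted p = 1.12e-05). GADD45A, a growth arrest gene, rose by 3.84, the cell cycle inhibitor CDKN1A by 1.91 and PLK3 by 2.11. PMAIP1 and GADD45A are also known targets of ATF4. Other well-known targets did not pass: MDM2 was at 2117 ± 342 and 1820 ± 233 (SD, n = 3), and BAX had a log2 fold change of 0.41 ± 0.20 and BBC3 of 0.39 ± 0.35.

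Single regulators of apoptosis moved in both directions. BMF, another BH3-only gene, fell from 804.1, 782.8 and 756.2 to 59.81, 40.18 and 50.06 (-3.96 ± 0.24), in a pattern opposite to PMAIP1. The survival genes MCL1 (-1.36), BCL2L1 (-0.95) and BCL2 (-1.81) fell and BCL2A1, a survival gene under NF-kB control, rose by 2.10. In all, 3 of 15 BCL2 family genes rose and 4 fell (4 and 4 without DMSO replicate 1 and YC-1 replicate 2). With all libraries 46.7% of that list were called, near the 43.8% of all tested genes. Of 17 death receptor and caspase genes, 10 rose and 6 fell; equal sums gave 6 and 6, and ribosomal protein scaling 3 and 6. The TRAIL receptor genes TNFRSF10A (1.62) and TNFRSF10B (1.35) and the inhibitor of apoptosis genes BIRC3 (2.28) and BIRC2 (1.12) were higher. The adaptor FADD fell from 217, 241.2 and 235.6 to 82.43, 90.43 and 35.75, and CASP10 fell by 1.47.

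Cytokine genes under NF-kB control rose as a group. CXCL8, a neutrophil chemokine (chromosome 4, 73740506 to 73743716), was at 144.8, 154.2 and 142.8 with DMSO and at 6816, 5640 and 8019 with YC-1, with no overlap (5.51 ± 0.18, adjusted p = 2.75e-06). CCL20, a lymphocyte chemokine, was listed at 0, 0 and 1.178 with DMSO and at 265.2, 159 and 285.4 with YC-1. IL6 (4.21), IL11 (3.91), CXCL2 (3.78) and CSF2 (3.15) rose as well, as did the feedback inhibitor TNFAIP3 (3.36), the adhesion molecule ICAM1 (2.77) and the subunits NFKB2 (2.33) and RELB (2.28). Of 23 tested members, 18 rose and 1 fell, with a median of 2.28. Without DMSO replicate 1 and YC-1 replicate 2 the counts were 15 and 1 of 20. CCL2, a monocyte chemokine, was the member that fell (-0.85 ± 0.30, adjusted p = 0.0426). NFKBIA, the inhibitor that NF-kB usually induces, was at 1021, 1099 and 870.5 with DMSO and 818.6, 841.9 and 711.3 with YC-1 and did not pass (-0.33 ± 0.17, adjusted p = 0.15).

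The kB element, searched as GGANTTTCC on both strands, was found in the promoters of 14 of 24 members (58.3%) and in 1.6% of all promoters. The list was chosen as genes of the NF-kB pathway, so this share is no separate support for NF-kB control. The windows of 4 members that rose are given in the same form, with the match in capitals.
CXCL8, chr4:73740452-73740511, plus strand: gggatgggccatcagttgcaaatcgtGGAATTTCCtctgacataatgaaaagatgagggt
CXCL2, chr4:74099239-74099298, minus strand: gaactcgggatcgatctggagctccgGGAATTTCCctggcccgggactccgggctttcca
ICAM1, chr19:10270908-10270967, plus strand: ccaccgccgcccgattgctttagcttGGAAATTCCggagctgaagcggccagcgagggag
TNFAIP3, chr6:137867166-137867225, plus strand: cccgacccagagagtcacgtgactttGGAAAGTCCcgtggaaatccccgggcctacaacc
In ICAM1 and TNFAIP3 the match lies on the opposite strand. The element was also present in NFKBIA, NFKB1 and REL, which did not pass the test, and in CXCL1, CXCL10 and CXCL11, which were not tested. Members with the letters in their promoters were thus both higher and not called.

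Immediate early genes, which usually answer growth factors within minutes, were still higher at 16 h in 16 of 26 cases, and 1 was lower (median 1.07). FOS went from 42.56, 41.41 and 32.72 to 658, 963.9 and 747.9 (4.30 ± 0.25). The nuclear receptor gene NR4A3 stood at 5.231, 4.868 and 1.774 with DMSO and at 154.8, 127.9 and 231.3 with YC-1. FOSB (2.83), NR4A2 (2.54) and the MAP kinase phosphatases DUSP4 (2.32) and DUSP6 (2.27) rose too. EGR1, a member that responds early to serum, did not pass at 16 h, at 202, 270.4 and 266.1 with DMSO and 324.6, 215.4 and 475.1 with YC-1. In the promoters of this list the AP-1 letters TGANTCA were present in 1 of 23 members (4.3%, against 7.7% of all promoters) and the CRE letters TGACGTCA in 3 (13.0%, against 1.8%). HBEGF, a ligand of the EGF receptor, rose from 2246, 2231 and 2231 to 22943, 20986 and 21545 (3.29 ± 0.13, adjusted p = 4.85e-06). ERBB2, which encodes another member of the EGF receptor family, fell by 0.94.

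**Figure D2:**
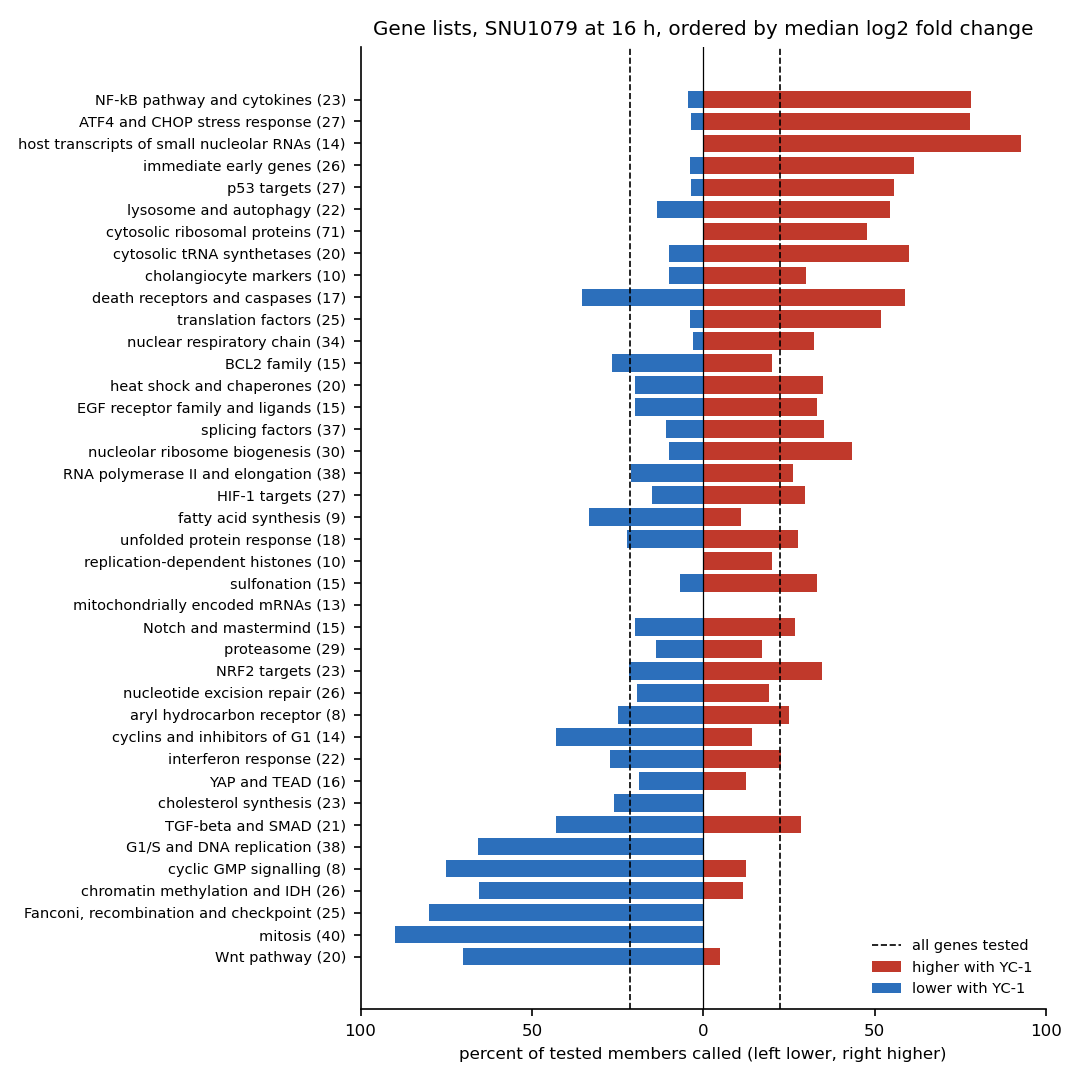
Share of tested members called higher (red, to the right) or lower (blue, to the left) with YC-1 in SNU1079 at 16 h, for gene lists with at least 8 tested members, whose number is in brackets; lists are ordered by median log2 fold change. Dashed lines mark the shares over all tested genes, 22.5% higher and 21.4% lower; NF-kB, ATF4 and CHOP genes extend to the right and Wnt, mitosis and Fanconi genes to the left.

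Mitotic genes fell almost as a whole. Of 40 tested members, 36 were lower, 0 were higher and the median was -1.36. TTK, a kinase of the spindle checkpoint, went from 502.4, 715.6 and 788.1 to 82.75, 66.51 and 91.87 (-3.03 ± 0.26, adjusted p = 0.000104). CENPF, a kinetochore protein, went from 7296, 8351 and 8377 to 1338, 1408 and 1447 (-2.52 ± 0.14), and CCNB1, the cyclin that drives entry into mitosis, from 3609, 3881 and 3734 to 1340, 1087 and 1192 (-1.64 ± 0.15). The kinesins KIF18A (-2.99) and KIF11 (-2.88), the spindle gene ASPM (-2.99) and the proliferation marker MKI67 (-1.23) were lower as well. The members that did not pass were PRC1, PTTG1, CENPA and FOXM1, chosen for naming after their values were seen; FOXM1, a transcription factor of mitotic genes, was at 2923, 2564 and 2782 with DMSO and 2535, 2292 and 3306 with YC-1. Without DMSO replicate 1 and YC-1 replicate 2, 34 of 40 were lower and 0 higher.

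Genes of the G1/S transition and DNA replication were lower in 25 of 38 cases and higher in 0, with a median of -0.77. POLE2, a subunit of DNA polymerase epsilon (-2.64), GINS1 of the replicative helicase (-2.23), the flap endonuclease FEN1 (-2.09) and the polymerase alpha gene POLA1 (-1.99) were among them. In the Fanconi, recombination and checkpoint list, whose proteins repair DNA crosslinks and breaks, 20 of 25 fell and 0 rose (median -1.21). BRCA1 went from 2306, 2632 and 3014 to 690.5, 789.4 and 566.6 (-1.96 ± 0.19), and the helicases BRIP1 (-2.23) and BLM (-1.85) also fell. Nucleotide excision repair genes were mixed, with 5 higher and 5 lower of 26 (2 and 9 with equal sums). That list had 38.5% called, beside 43.8% of all tested genes, with XPC at 1.16 and CDK7 at -2.01. The G1 cyclin CCND1 rose from 8208, 6091 and 6737 to 12109, 21506 and 14449 (1.16 ± 0.22), whereas the kinase gene CDK6 fell by 1.86.

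Promoters of cell cycle genes often hold a CHR, an element bound by DREAM, searched here as TTTGAA on both strands. It was present in 22 of 34 mitotic members with a promoter (64.7%) and in 15.2% of all promoters, and 20 of the 22 members were lower. The spelling TTCGAA was present in 1 member (2.9%, against 1.4%). CCAAT, which a factor of the same promoters binds, was present in 27 members (79.4%) and in 34.6% of all promoters. The 4 windows below were chosen as mitotic regulators with the element near the start, and capitals mark it.
CCNB2, chr15:59105086-59105145, plus strand: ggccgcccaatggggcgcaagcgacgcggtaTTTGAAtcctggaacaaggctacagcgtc
PLK1, chr16:23678829-23678888, plus strand: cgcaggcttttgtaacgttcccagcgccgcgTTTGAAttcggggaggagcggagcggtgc
BUB1B, chr15:40161009-40161068, plus strand: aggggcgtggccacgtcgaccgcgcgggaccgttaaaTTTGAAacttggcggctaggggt
KIF11, chr10:92593070-92593129, plus strand: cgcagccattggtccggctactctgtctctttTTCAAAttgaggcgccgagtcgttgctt
CCNB2, a B-type cyclin, fell by 1.56 and PLK1, a mitotic kinase, by 0.80, and the kinesin KIF11 carries the element on the opposite strand. PRC1 and CENPA hold the same letters and did not pass, so that presence of the element alone did not separate called from uncalled members.

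The late response was set against the 6 h response of the same line in 1 fit of 12 libraries. The difference of the YC-1 effects (16 h minus 6 h) passed for 901 of 16387 genes (5.5%), 384 higher (2.34%) and 517 lower (3.15%). In the mitotic list 20 of 40 members passed, all lower, and in the NF-kB list 13 of 23, all higher. Over the other settings run for these lists the mitotic count ran from 17, without the 16 h libraries DMSO replicate 1 and YC-1 replicate 2, to 35 with array weights, and the NF-kB count from 7, with ribosomal protein scaling, to 17 with array weights. The total of 901 was sensitive to single libraries: it was 286 to 339 without any 1 of DMSO replicates 1, 2 and 3 or YC-1 replicates 2 and 3 at 6 h, 2311 without YC-1 replicate 1 at 6 h, and 405 and 365 without DMSO replicates 2 and 3 at 16 h. Levels in the DMSO cells also differed between the 2 times. All 40 mitotic genes had a higher DMSO mean at 16 h than at 6 h (median difference 0.76 on the log2 scale), while 35 had a lower YC-1 mean (median -0.35). Of the 23 NF-kB genes, 22 had a lower DMSO mean at 16 h (median -1.27), and the YC-1 means were higher for 10 and lower for 13 (median -0.06).

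For single genes this reads as follows. CXCL8 had a DMSO mean of 712.7 ± 96.6 at 6 h and 147.3 ± 6.11 at 16 h, and a YC-1 mean of 5809 ± 1236 and 6825 ± 1189 (SD, n = 3). The difference of its effects was 2.50 ± 0.26 (SE, adjusted p = 0.000481). BIRC3 had DMSO means of 6588 ± 1024 and 798.7 ± 200.5 and YC-1 means of 5986 ± 2601 and 3893 ± 1091, so that its 16 h rise went with a lower DMSO level and not with a higher YC-1 level. CCNB1 stood at 2371 ± 12.4 and 3741 ± 136.4 with DMSO and at 1924 ± 350.1 and 1206 ± 127.3 with YC-1 (difference -1.32 ± 0.20, adjusted p = 0.00551). CENPF stood at 3891 ± 153.4 and 8008 ± 616.7 with DMSO and at 3249 ± 798.5 and 1397 ± 55.1 with YC-1 (difference -2.22 ± 0.23, adjusted p = 0.000481). The part of time in culture in these differences was not tested.

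**Figure D3:**
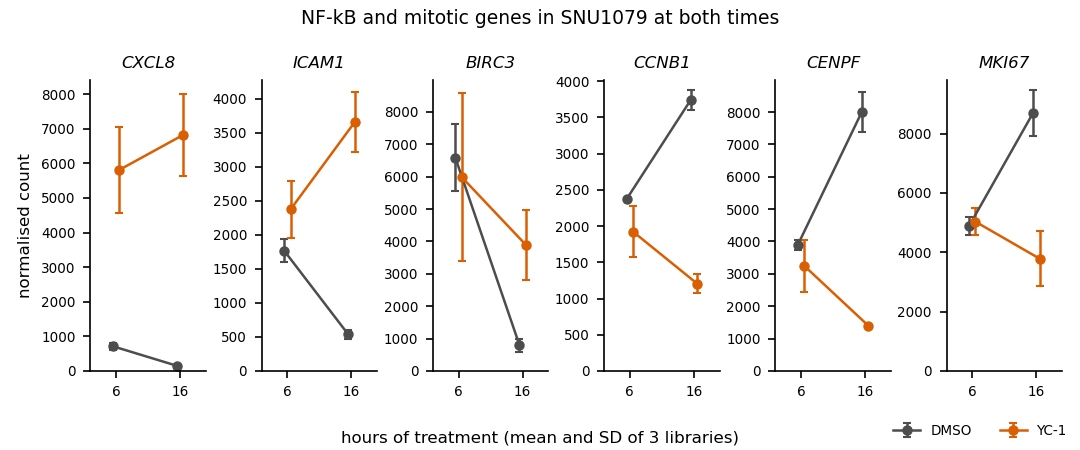
Mean normalised count with SD (3 libraries) at 6 and 16 h for DMSO (grey) and YC-1 (orange) in SNU1079, for 3 NF-kB genes (left) and 3 mitotic genes (right). DMSO levels of CXCL8, ICAM1 and BIRC3 are lower at 16 h, and those of CCNB1, CENPF and MKI67 are higher at 16 h while YC-1 levels are lower.

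Some members of the stress lists had smaller responses at 16 h than at 6 h. In the ATF4 and CHOP list 5 of 28 differences were called, all lower, but the direction depended on the fit: 6 were higher and 6 lower with all 24 libraries, 9 and 9 with array weights, and 4 and 7 with a GC correction. CHAC1 had a 6 h effect of 4.11 and a 16 h effect of 2.49 (difference -1.62 ± 0.32, adjusted p = 0.0148), and the nutrient sensor gene SESN2 went from 2.03 to 0.88 (-1.15 ± 0.25, adjusted p = 0.0219). The mRNA of ATF4 had effects of 1.04 at 6 h and 0.27 at 16 h (-0.77 ± 0.19, adjusted p = 0.0337). EGR1 had effects of 2.71 and 0.40 (-2.31 ± 0.37, adjusted p = 0.0058). MCL1, in contrast, had effects of -0.31 and -1.36 (-1.05 ± 0.25, adjusted p = 0.0324).

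Against RBE at 16 h, in a fit of the 12 libraries at that time, the YC-1 effect differed for 1633 of 17261 genes (9.46%), 906 higher (5.25%) and 727 lower (4.21%) in SNU1079. That total was 763 to 1034 without any 1 RBE library and 947 without DMSO replicate 2 of SNU1079. In the NF-kB list 12 of 24 members were higher in SNU1079 and 1 was lower. CXCL8 rose by 5.51 in SNU1079 and 2.14 in RBE (difference 3.37 ± 0.37, adjusted p = 0.000363). ICAM1 had means of 536.7 ± 67.5 and 3656 ± 439.1 in SNU1079 and of 9.658 ± 4.63 and 11.72 ± 6.28 in RBE (difference 2.52 ± 0.50). In the mitotic list 16 of 40 were lower in SNU1079 and 0 higher; under ribosomal protein scaling 2 were lower. CCNB2 had means of 807.8 ± 84.1 with DMSO and 275.4 ± 49.0 with YC-1 in SNU1079, and of 2026 ± 33.2 and 1791 ± 52.4 in RBE (difference -1.38 ± 0.19). JAG1, a Notch ligand, rose by 2.70 in SNU1079 and 0.42 in RBE (2.28 ± 0.14, adjusted p = 7.58e-06). SOX9, a transcription factor of the bile duct lineage, rose by 1.97 in SNU1079 and fell by 0.52 in RBE (2.49 ± 0.21, adjusted p = 6.65e-05).

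Genes of the Wnt pathway fell in most cases, while TGF-beta and Notch genes were mixed. TCF7L2, a nuclear effector of Wnt signalling (chromosome 10, 112950250 to 113167678), went from 186.2, 183.2 and 164.2 to 27.09, 0.8067 and 11.3 (-4.39 ± 0.84, adjusted p = 0.00331). In the Wnt list 14 of 20 fell and 1 rose (median -1.44), among them the receptor genes LGR4 (-2.80), FZD2 (-2.52) and LRP6 (-2.36), the ligase ZNRF3 (-2.76) and the secreted inhibitor DKK1 (-2.35). TCF7, of the same family as TCF7L2, was the member that rose, from 2.926, 7.4 and 6.48 to 41.84, 20.36 and 49.09. CTNNB1, which encodes beta-catenin, did not pass (-0.26 ± 0.14, adjusted p = 0.166). In the TGF-beta and SMAD list 9 of 21 fell and 6 rose (11 and 2 with ribosomal protein scaling), with BMPR1A (-3.29), SMAD6 (-2.73), SMAD7 (-2.24) and SMAD3 (-1.75) lower and BMP2 (1.26) higher.

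Of 15 Notch and mastermind genes, 4 rose and 3 fell (46.7% called, beside 43.8% of all tested genes). Equal sums gave 3 and 6. MAML2 fell from 247.1, 279.1 and 332.4 to 18.89, 2.451 and 7.235 (-5.11 ± 0.58) and MAML3 by 4.49, while MAML1 stood at 846.5, 722.3 and 787.3 and at 1006, 753.9 and 1860 and did not pass (0.52 ± 0.30, adjusted p = 0.19). The receptor NOTCH1 (1.90) and the target HES4 (2.03) rose. Histone demethylases of the same kind also went apart. KDM6A, on the X chromosome, fell from 322.3, 362.8 and 378.7 to 28.16, 11.2 and 19.08 (-4.20 ± 0.36), and KDM6B rose from 263.8, 171.6 and 315.1 to 2722, 1417 and 1272 (2.80 ± 0.33). Of 26 genes of chromatin methylation and IDH, 17 fell and 3 rose (median -1.16), with the Polycomb cofactor JARID2 at -3.59, EED at -1.73 and EZH2 at -1.20. IDH1 was at 1857, 2332 and 2421 with DMSO and 1708, 1372 and 1901 with YC-1 and did not pass (-0.41 ± 0.18, adjusted p = 0.0983).

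Members of these pairs differed in the length of the gene, and across the genome the calls ran with it. MAML2 spans 366.6 kb, MAML3 437.4 kb, KDM6A 239.4 kb and TCF7L2 217.4 kb, while MAML1 spans 44.4 kb, KDM6B 14.9 kb and TCF7 37.2 kb. The median span was 16.6 kb among genes called higher, 73.3 kb among genes called lower and 27.6 kb over all tested genes. Of 496 genes longer than 300 kb, 59.1% were lower and 2.42% higher. Of 1614 genes between 5 and 10 kb, 13.3% were lower and 34.6% higher. Without DMSO replicate 1 and YC-1 replicate 2, 58.4% of the longest class were lower. With equal sums 70.8% of the longest class were lower and 1.21% higher, and in the class of 5 to 10 kb 18.9% were lower and 18.3% higher. The GC content of the mature transcripts went the same way, with medians of 54.5% for higher, 45.0% for lower and 48.8% for all tested genes, and the separate parts of span and GC content were not tested. Lower members of the mitotic list had a median span of 30.7 kb, those of the G1/S and DNA replication list 23.0 kb and those of the Fanconi list 59.8 kb. In other lists the lower members were longer, with medians of 81.8 kb for Wnt, 87.6 kb for TGF-beta and SMAD, and 133.8 kb for chromatin methylation and IDH.

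**Figure D4:**
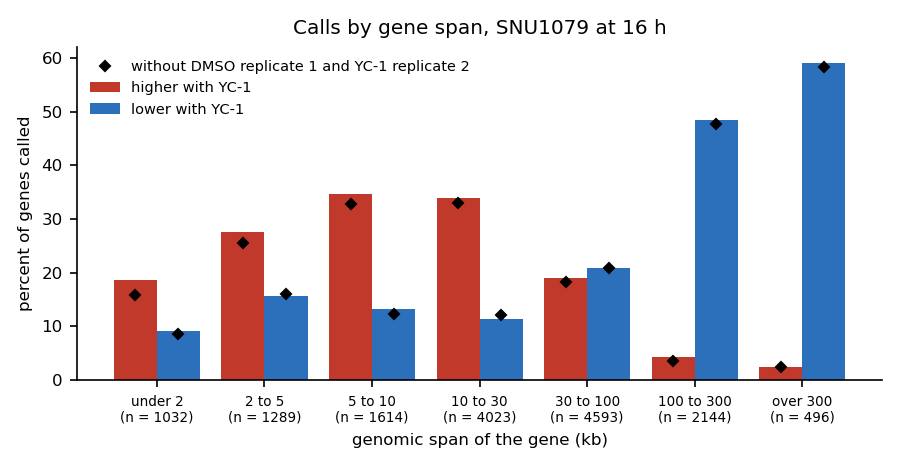
Percent of tested genes called higher (red) or lower (blue) with YC-1 in SNU1079 at 16 h, by genomic span of the gene in kb, with the number of genes in each class; diamonds give the shares without DMSO replicate 1 and YC-1 replicate 2. The share called lower is 13.3% between 5 and 10 kb and 59.1% above 300 kb.

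The largest falls on the log2 scale were those of B3GALT1, a galactosyltransferase (93.57, 141.4 and 161.3 with DMSO and 9.724, 0 and 1.379 with YC-1), PDE4D, MAML2, VAV3 and NHS. PDE4D, a cyclic AMP phosphodiesterase that spans 1553 kb, stood at 94.49, 247.1 and 293.2 with DMSO and at 21.71, 4.011 and 0 with YC-1, where the lowest DMSO library was replicate 1. NHS (chromosome X, 17375420 to 17735994) fell from 580.9, 613.1 and 859.6 to 37.94, 17.67 and 12.99 (-4.96 ± 0.39, adjusted p = 8.73e-05). BAAT, an enzyme that conjugates bile acids, had a log2 fold change of -4.06. BAAT spans 23.1 kb, near the median of 27.6 kb over all tested genes, and went from 1208, 1447 and 1639 to 119.9, 56.34 and 87.84.

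Transcripts of the translation machinery were moderately higher. Of 71 cytosolic ribosomal protein genes, 34 rose and 0 fell, with a median of 0.55; with equal sums 2 rose and 1 fell, so that this rise depends on the scaling. RPL12 went from 14208, 15229 and 13706 to 35035, 30489 and 29638 (1.14 ± 0.14). Host transcripts of small nucleolar RNAs, which guide the modification of ribosomal RNA and whose spliced products nonsense-mediated decay commonly degrades, rose in 13 of 14 cases (median 1.60) and in 10 of 14 with equal sums. SNHG15 went from 536, 463.1 and 544.4 to 5006, 5810 and 2649 (3.05 ± 0.28) and GAS5 from 1707, 1732 and 1569 to 9996, 8000 and 7455 (2.33 ± 0.16). The initiation factors EIF1 (1.96) and EIF5 (1.81) rose, and EIF4E, which binds the cap, fell from 1406, 1376 and 1520 to 668.3, 334.4 and 539.6 (-1.53 ± 0.25).

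POLR2A, the largest subunit of RNA polymerase II, rose from 4119, 2930 and 3554 to 24682, 30253 and 28678 (2.99 ± 0.17, adjusted p = 2.34e-05). The list of RNA polymerase II and elongation genes, which includes it, gave 10 higher and 8 lower of 38. Its share called, 47.4%, was near the 43.8% of all tested genes, and equal sums gave 5 and 9. In that list SUPT5H (1.50) and SUPT6H (1.45) rose and the elongation genes AFF1 (-1.86) and RTF1 (-1.52) fell. Among 37 splicing factors 13 rose and 4 fell (45.9% called), but equal sums gave 5 higher and 10 lower. CLK1, a kinase of splicing factors, went from 245.2, 309.5 and 348.1 to 1677, 1280 and 1720 (2.37 ± 0.21), and HNRNPA1 fell from 23454, 25224 and 24797 to 7196, 8385 and 7040 (-1.70 ± 0.14). HSPA8, the constitutive chaperone of the cytosol, fell from 47355, 47362 and 49570 to 16822, 11287 and 17102 (-1.70 ± 0.18), while 7 of 20 heat shock genes rose and 4 fell; equal sums gave 3 and 4, and ribosomal protein scaling 0 and 4. MALAT1, a nuclear long non-coding RNA, rose from 661.1, 1335 and 1374 to 10894, 11136 and 23319 (3.73 ± 0.36), and NEAT1, its neighbour on chromosome 11, fell from 5484, 5288 and 5973 to 1629, 2413 and 1324.

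The YC-1 libraries differed widely in mitochondrially encoded RNA. It made up 6.02%, 8.20% and 8.50% of the summed normalised count in the DMSO libraries and 18.1%, 3.38% and 22.1% in the YC-1 libraries. YC-1 replicate 2 was below every DMSO library and the other YC-1 libraries were above all of them. The mean difference of 6.96 percentage points gave p = 0.4 in a two-sided exact permutation test, whose smallest possible p is 0.1, and the difference was 12.5 percentage points without YC-1 replicate 2. MT-CO1, a subunit of cytochrome c oxidase, stood at 187470, 223043 and 254480 with DMSO and at 803741, 126858 and 1193228 with YC-1. MT-ATP6 in YC-1 replicate 2 was at 4953, 0.020 times the mean of the other 2 YC-1 libraries, and the ribosomal RNA MT-RNR2 at 0.283 times. None of the 13 mitochondrially encoded mRNAs passed the test (limma, 0 called, and 0 at an unadjusted p under 0.05), whereas 13 of 13 were higher (median 1.49) without DMSO replicate 1 and YC-1 replicate 2, where 42.7% of genes were called. In RBE at 16 h, 13 of 13 were higher with a median of 1.09, beside 36.5% of all genes. Nuclear genes of the respiratory chain gave 11 higher and 1 lower of 34 (median 0.42), and 0 higher and 6 lower with equal sums.

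**Figure D5:**
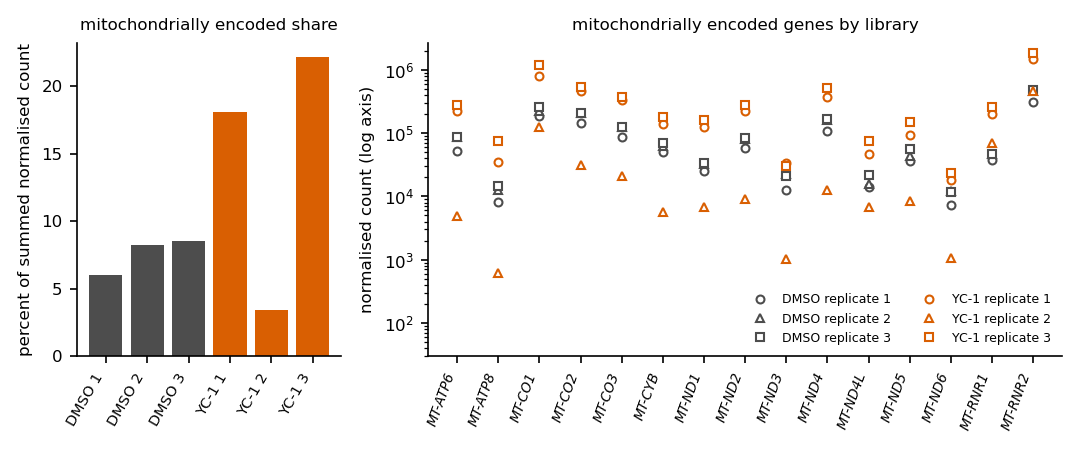
Left, percent of the summed normalised count from mitochondrially encoded genes in each of the 6 SNU1079 libraries at 16 h; right, normalised counts (log axis) of 15 mitochondrially encoded genes by library. YC-1 replicate 2 (3.38%) lies below the 3 DMSO libraries and YC-1 replicates 1 and 3 (18.1% and 22.1%) above them.

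Genes tied to the known actions of YC-1 were looked at one by one. SULT1A1 (ENSG00000196502, chromosome 16, 28605196 to 28623625) was at 1690, 1414 and 1236 with DMSO and at 1416, 1806 and 1023 with YC-1, with overlapping libraries (-0.06 ± 0.23, adjusted p = 0.852). Of 15 sulfonation genes, 5 rose and 1 fell (40.0% called, beside 43.8% of all tested genes). Without DMSO replicate 1 and YC-1 replicate 2 the counts were 3 and 1 of 14, and with equal sums 2 and 2 of 15. SULT1C2 rose from 625, 794.3 and 792.8 to 1555, 1633 and 1655 (1.14 ± 0.17), and SULT1C4 stood at 0, 0.8822 and 1.71 with DMSO and at 24.82, 29.41 and 58.14 with YC-1. The calls of SULT1A2 (0.71), SULT1A3 (1.24) and SULT1A4 (0.77) were lost with equal sums, and these near-identical genes may share reads. SLC26A2, a sulfate transporter, fell from 4188, 5575 and 7475 to 2392, 1577 and 2396 (-1.42 ± 0.25).

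In the cyclic GMP list 6 of 8 tested genes fell and 1 rose. Both subunits of soluble guanylate cyclase fell: GUCY1A3 from 429.6, 396.5 and 514.5 to 147.3, 81.6 and 97.05 (-2.07 ± 0.27) and GUCY1B3 from 702.5, 668 and 807.7 to 264.8, 142.1 and 414.4 (-1.53 ± 0.35). The phosphodiesterase PDE5A fell by 1.81, and VASP, a substrate of the cyclic GMP kinase, rose by 1.04. Targets of HIF-1 were mixed, with 8 higher and 4 lower of 27. The share called, 44.4%, was near the 43.8% of all tested genes. The glycolytic genes HK2 (-2.11), LDHA (-1.39) and PFKFB3 (-0.95) fell, ADM (1.17) and NDRG1 (1.16) rose, and HIF1A itself was at 10481, 9361 and 10117 and at 10136, 7578 and 12968 (0.00 ± 0.20, adjusted p = 0.995). With equal sums 0 HIF-1 targets were higher and 5 lower. NRF2 targets gave 8 higher and 5 lower of 23 (56.5% called), with OSGIN1 (2.75), the cystine transporter SLC7A11 (2.27) and SRXN1 (1.21) higher. Equal sums gave 5 and 10. Aryl hydrocarbon receptor genes gave 2 and 2 of 8, and 0 and 2 with equal sums.

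Lipid, lysosome and interferon genes were described in the same way. Over all tested genes 22.5% were higher and 21.4% lower. INSIG1, which holds back the factors of sterol synthesis, fell from 705.4, 858 and 933.1 to 171.6, 131.7 and 193.9 (-2.33 ± 0.23), in a list of 23 cholesterol genes with 6 lower and 0 higher (12 lower and 4 higher with all 24 libraries in the fit, where 59% of genes were called). ELOVL6, a fatty acid elongase, fell by 2.41 and the synthase FASN rose by 0.99. Of 22 lysosome and autophagy genes, 12 rose and 3 fell; equal sums gave 8 and 7, and ribosomal protein scaling 4 and 6. MAP1LC3B, which encodes the autophagosome protein LC3B, went from 2271, 2501 and 2566 to 11739, 9650 and 12587 (2.20 ± 0.15), and the autophagy receptor SQSTM1 rose by 1.55. Of 22 interferon response genes, 5 rose and 6 fell (3 and 10 with equal sums), with IRF7 (3.12) and GBP1 (2.62) higher and IFIT1 (-2.98) and IFIT3 (-1.97) lower. The proteasome gave 5 higher and 4 lower of 29, and 1 and 11 with equal sums. YAP and TEAD genes gave 2 and 3 of 16 (1 and 8 with equal sums), and EGF receptor genes and ligands 5 and 3 of 15 (3 and 4). Nucleolar genes of ribosome biogenesis gave 13 and 3 of 30, but 9 and 10 with equal sums and 4 and 11 with ribosomal protein scaling. Translation factors gave 13 and 1 of 25, but 6 and 6 with equal sums and 4 and 6 with ribosomal protein scaling. Replication-dependent histones gave 2 and 0 of 10, and 0 and 2 with equal sums.

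Bile duct markers were present throughout. The keratins KRT19 (22410 ± 3845 and 17374 ± 5733, SD, n = 3) and KRT7 (31853 ± 6151 and 50904 ± 17263) did not pass the test. In the list of 10 tested cholangiocyte markers 3 rose and 1 fell (40.0% called, beside 43.8% of all tested genes). Without DMSO replicate 1 and YC-1 replicate 2, 1 was higher and 2 lower, and with equal sums 1 and 1. The summed level of that list was 60752 to 81858 with DMSO and 79515 to 116333 with YC-1. Hepatocyte markers summed to 1179 to 1376 and 1581 to 2234, most of it SERPINA1, and 2 of 5 tested were higher. Stromal markers gave 1 higher and 1 lower of 5, endothelial markers 1 and 0 of 2, and leukocyte markers 1 and 0 of 3. The leukocyte marker CD14 was listed at 0 in all DMSO libraries and at 38.4, 62.61 and 41.41 with YC-1.

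CD14 was 1 of 61 genes listed at 0 in all 3 DMSO libraries and at 10 or more in all 3 YC-1 libraries, 41 of them protein coding among 60 with a known type. In the opposite direction there was 1 gene, TET1, a DNA demethylase, at 10.06, 12.68 and 12.31 with DMSO and 0 with YC-1. These genes were selected by their values and carry no test here. By their lowest YC-1 library, the first were RPL36A-HNRNPH2, a read-through of a pair of neighbouring genes (375.3, 725.3 and 259.6), ENSG00000235862, an antisense gene (275, 362.3 and 201), and NHLH1, a neuronal transcription factor (146.1, 87.44 and 133). At 6 h 17 of the 61 were at 10 or more in all YC-1 libraries, and in RBE at 16 h 34 were. With DMSO, 33 of the 61 were at 0 in all 3 libraries at 6 h, but only 14 in RBE at 16 h. The 34 in RBE therefore include genes that were already above 0 there without YC-1.

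The position of these genes was examined after their values were seen. Of 60 with coordinates, 31 (51.7%) had a gene with a mean of at least 100 ending within 10 kb upstream on the same strand or overlapping their start, against 18.6% of all tested genes with coordinates. The share was 22.3% of 291 uncalled genes with a DMSO mean under 10 and 41.4% of 391 called higher with such a low DMSO mean. Among all genes called higher it was 27.5%. The genes listed at 0 with DMSO had a median span of 6.54 kb, beside 27.6 kb over all tested genes, and the shares are not matched for span. FAM71A (chromosome 1, 212624474 to 212626778; 65.32, 66.69 and 96.94 with YC-1) begins 3.70 kb past the end of ATF3, and ENSG00000235862 (212624284 to 212626771) lies over it on the other strand. CFP begins 5.22 kb past ELK1 (0.47, not called). CD14 begins 5.04 kb past NDUFA2 (0.07, not called), and NHLH1 8.12 kb past NCSTN (0.34, not called). Of the 31 upstream genes, 8 were called higher, beside 835 of 2827 over all tested genes with such a neighbour. The libraries were made with a stranded kit, but whether the counting used strand is not given in the sources used here, so that antisense genes cannot be told apart from their partners.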

How the data were processed

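RNA was sequenced from SNU1079 and RBE cells given YC-1 or DMSO, in 8 groups of 3 libraries, with an mRNA kit that keeps strand, per the labels' protocols. The authors deposited 1 table of normalised counts (a signal that is never negative, from DESeq2 size factors); STAR, DESeq2 and hg38 are named in the submitters' processing notes, and no counting tool, strand setting or annotation is named there. Whole reads could not be recovered, so no count model was used and sequencing depth is unknown. The series' design text calls the replicates biological; p-values measure only the spread between these libraries. The treatment times follow the titles, which the separate time label contradicts.

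Genes with at least 10 in at least 3 of the libraries compared were tested with limma 3.58.1 (R 4.3.3) on log2(normalised count + 1) with an intensity trend, two-sided, with Benjamini-Hochberg adjustment over all genes tested, with calls at an adjusted p under 0.05. The log2(value + 1) scale is that of every fold change, which understates the change of low genes, and a gene low in 1 group passed the filter only through the other. The response of the 6 libraries had 4 residual degrees of freedom, and differences of responses were interaction terms over 12 libraries. On simulated data for the 16 h comparison (15096 genes), 45.0% of 100 genes changed by 1 log2 unit and 94.0% of 100 changed by 2 were recovered, and 5.4% of 147 calls were false. The simulation held far fewer changed genes than the 6865 called in the real comparison, and its noise was independent between genes. Its rates of recovery and of false calls therefore cannot be carried over to the real comparison. Deviations of same-numbered libraries had r of -0.04, -0.06 and 0.25, inside the range of -0.29 to 0.26 of differently numbered ones. No block was used in the main fit.

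Positions and gene types come from GENCODE 29, which matched 97.0% of tested genes, and promoters from RefSeq on GRCh38.p14. Of 57820 rows, 35049 carried symbols, 27 of them turned into dates, and 17147 were named from a gene name table; 6 of 1017 list members had no row. Named genes were the 15 highest and 15 lowest called genes with a mean of at least 100 and separated libraries, up to 6 called members per list by size (mean of at least 50), 6 per direction for each difference of responses, the most deviating genes of DMSO replicate 1 and YC-1 replicate 2, up to 8 genes listed at 0 in 1 group, and a set of genes of interest. Other genes, such as ICAM1, NFKB2, RELB, CHAC1, MTHFD2, TCF7, MAML1, EZH2, CCNB2 and those with printed promoters, were chosen after their values were seen. The members and the 44 gene lists were chosen with earlier results of these data known. Alternatives covered pseudocounts, filters, scaling, variance models, weights, libraries left out and, added after seeing the data, a correction for GC content in 20 bins. Figures were drawn with matplotlib 3.10.9 (Python 3.11.15).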

Additional observations from a re-analysis of the deposited data

Results flagged for a closer look

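The size of the YC-1 response (log2 scale) differed between 16 h and 6 h in SNU1079, by the limma interaction term, for the following named genes, with Benjamini-Hochberg adjusted p-values of 0.000298 to 0.0324. The largest fall was VAV3 (-2.88, from -2.21 at 6 h to -5.09 at 16 h), where the DMSO mean was 94.25 ± 13.3 at 6 h and 347.5 ± 93.5 at 16 h (SD, n = 3). NR5A2 differed by -2.65, NHS by -2.59, ELMSAN1 by -2.45, LINC01123 by -2.42 and ZBED3 by -2.38, the last with a response of 0.81 at 6 h and -1.57 at 16 h. Towards higher values, ENSG00000261889 differed by 4.35, ENSG00000259001 by 3.73, MALAT1 by 3.24, GBP1 by 3.04, PALM2 by 2.99 and WNT4 by 2.85. GBP1 had a DMSO mean of 642.3 ± 52.99 at 6 h and 86.4 ± 17.3 at 16 h, and YC-1 means of 484.2 ± 98.7 and 529.3 ± 56.1.

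The response at 16 h differed between SNU1079 and RBE, by the limma interaction term, with adjusted p-values of 7.11e-05 to 0.045. NHS (-4.96) and SPSB4 (-4.12) were listed at 0 in all RBE libraries at 16 h, so that these values are the SNU1079 response alone; the same holds for SFT2D3 (7.02). PDE4D differed by -4.11, and GRHL3 by -4.11 with SNU1079 means of 3.188 and 0. EGR1 differed by -3.69, with a response of 0.40 in SNU1079 and 4.09 in RBE. CIART differed by -3.53, with RBE means of only 1.165 with DMSO and 7.731 with YC-1. CCL20 differed by 6.16, ARHGAP31 by 5.56, SV2A by 4.97 and KIAA1549L by 4.74. In SNU1079 the DMSO means of CCL20, ARHGAP31 and SV2A were only 0.39, 0.937 and 0, and their YC-1 means were 236.5, 26.38 and 25.19. SV2A, which has the lowest adjusted p-value of this range, and SFT2D3 are also among the genes selected for being listed at 0 with DMSO. Their differences are therefore no separate support for that selection. KIAA1549L had SNU1079 means of 1.499 with DMSO and 7.618 with YC-1, and RBE means of 1646 and 222. ENSG00000261786 differed by 4.39 and was listed at 0 in all SNU1079 libraries, so that its value is the fall in RBE. Dixon's test for an outlying sample was not applied to groups of 3 libraries.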

How the results depend on the processing

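The 16 h response (6865 genes, 3519 higher and 3346 lower) was called for 10509 genes with array weights (5490 higher) and for 4488 with an absolute log2 fold change of at least 1 (2103 higher). Equal sums gave 1757 higher, and ribosomal protein scaling 1185 higher and 5053 lower. Leaving out 1 library in turn gave totals of 4906 to 6513, with 2440 to 3319 higher and 2352 to 3326 lower. The difference between 16 h and 6 h (901 genes, 384 higher and 517 lower) gave 549 (240 and 309) with no filter, 1809 (131 and 1678) with equal sums, 6445 (3297 and 3148) with array weights, 3020 (1493 and 1527) with all 24 libraries and 2142 (1031 and 1111) with the GC correction added later. Equal sums without mitochondrial genes gave 193 higher and 1044 lower, ribosomal protein scaling 61 higher, and the log2 minimum of 1 gave 224 higher. Leaving out 1 library gave 286 to 2311, with 107 to 1175 higher and 179 to 1136 lower; the lowest values were without DMSO replicate 2 at 6 h and the highest without YC-1 replicate 1 at 6 h. The difference between SNU1079 and RBE (1633 genes, 906 higher and 727 lower) gave 4926 (2587 and 2339) with array weights, 2593 (1452 and 1141) with all 24 libraries, 2530 (1417 and 1113) with the GC correction and 959 (554 and 405) with the log2 minimum of 1. It gave 2629 (1270 lower) without DMSO replicate 1 and YC-1 replicate 2, and 1983 higher and 179 lower with ribosomal protein scaling. Leaving out 1 library gave 763 to 1990, with 427 to 1089 higher and 336 to 901 lower, lowest without RBE DMSO replicate 3. Causes of these moves were not tested.

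With the replicate number as a block, 7167 genes were called at 16 h (3731 higher and 3436 lower), 654 for the difference between times and 1202 for that between lines; the labels do not say that same-numbered samples share a culture. The difference in the mitochondrial share was 3.161 to 12.53 percentage points with 1 library left out, and 4.343 without the ribosomal RNAs. Of 258 named genes, 250 were called, and 178 of these kept their direction and call in every setting run. Reversed values were -0.01 for AMOTL2 with ribosomal protein scaling (0.52 as reported) and 0.02 for AHR with both times pooled (-0.80 as reported); the cause was not tested.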

Other observations

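Single genes show how far DMSO replicate 1 and YC-1 replicate 2 lay from the other libraries of their groups; they were picked as the most deviating ones and carry no test. The guidance cue gene SEMA3A was at 299.4 in DMSO replicate 1 and at 46 and 63.25 in DMSO replicates 2 and 3. ENSG00000213002 was at 450.2 in DMSO replicate 1 and at 3551 and 3350 in the others. The read-through gene BLOC1S5-TXNDC5 was listed at 0, 87.83 and 649.2 in DMSO replicates 1 to 3 and at 303.9, 356.3 and 0 in YC-1 replicates 1 to 3. In YC-1 replicate 2 the lowest genes relative to the other YC-1 libraries included mitochondrial ones. MT-ND4, a subunit of complex I, was at 12550 against 373207 and 512176. MTND2P28, a nuclear copy of MT-ND2 and not of MT-ND4, was at 115.9 against 4508 and 13328. ENSG00000268083 was at 513.3 in YC-1 replicate 2 and listed at 0 in the other YC-1 libraries.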
